A study of Equus caballus with 37 samples.

Results

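Expression of 2 genes of glycerophospholipid synthesis, AGPAT5 (ENSECAG00000016106) and LPGAT1 (ENSECAG00000013187), was examined in whole blood of Arabian horses before and during race training. They were selected by their Ensembl identifiers and are 2 of the 26991 genes in the count table. Blood was drawn from the jugular vein of untrained horses (T0, 6 libraries) and of horses in training after the slow canter phase in March (T1, 12 libraries), after the intense gallop phase in May (T2, 11 libraries) and in October, when racing ended (T3, 8 libraries). The T0 samples were also taken in October. Mares numbered 2 of the 6 horses of T0, 5 of 12 libraries of T1, 4 of 11 of T2 and 4 of 8 of T3, and the others were stallions. All horses of T1, T2 and T3 and 1 horse of T0 were aged 3 years, and the other 5 horses of T0 were aged 2.5 years. No line, genotype or agent distinguished the groups. T0 differed from T1 and T2 in season as well as in training, and training and season cannot be told apart there. Most horses of T0 were also younger, so age and training cannot be told apart in any comparison with T0, including T0:T3. Among T1, T2 and T3, season and stage of training changed together and cannot be told apart either. The trained horses were sampled repeatedly. The study also states that some of the untrained horses did not enter its training centre, so others of T0 may have been sampled again in training. The labels name no horse, so the libraries of the periods were compared as independent samples and the p-values treat them as such.

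Glycerophospholipids are the main lipids of cell membranes. Their acyl chains are attached one after the other by acyltransferases of the endoplasmic reticulum and mitochondria. AGPAT5 belongs to the family that acylates lysophosphatidic acid to phosphatidic acid, the precursor from which the other glycerophospholipids and triacylglycerol are built. LPGAT1 acylates lysophospholipids and was named for its action on lysophosphatidylglycerol, which it converts to phosphatidylglycerol, a precursor of the mitochondrial lipid cardiolipin. Both proteins belong to the same broad family of acyltransferases. Mature red cells of mammals have no nucleus, and whole blood also holds white cells and platelets. Which of these cells the messenger RNA of the samples came from was not tested.

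The identifier ENSECAG00000016106 carries the symbol AGPAT5 in the study's primer list and the symbol AGPAT1, a related enzyme, elsewhere in the study. The name AGPAT5 is used here for this identifier and rests on the primer list. The PCR primers designed by the study for both genes are shown as that list gives them, beside each symbol and its identifier. They are written 5′ to 3′ in lower case, with no part marked.
AGPAT5 forward: gatggcttcatgaacgtttt
AGPAT5 reverse: ttccttccagcctcagtcat
LPGAT1 forward: tgtcactctgccaaggattg
LPGAT1 reverse: tccaaggatccaggtttgaa
Each primer is 20 bases long. G and C make up 40% and 50% of the AGPAT5 pair and 50% and 45% of the LPGAT1 pair. The positions of the genes and primers in the horse genome were not analysed here.

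Levels are given as CPM, the counts per 1000000 counts of the library total after scaling with TMM factors, which correct the total for genes that take up an unusual share of it. Library totals ranged from 3810631 to 14932603 counts with a median of 10611594, so that 1 CPM stood for about 11 counts. In T1, 5 libraries stood apart with TMM factors from 0.410 to 0.696, against 0.922 to 1.14 in the other 7, and the factors of the other periods ran from 0.949 to 1.25. The study lists the rate of unique mapping and the sequencing pool of its samples, in an order of periods that matches the labels. Read in that order, these 5 libraries had lower rates than each of the other 7 of T1. T1 replicates 1 to 4 were then the only T1 libraries of their pool. The cause of the low factors was not tested. A factor below 1 raises the CPM of a library relative to those from its total. Comparisons of periods that include T1, and the coefficients of variation within T1, are therefore given with and without these 5 libraries. The correlation within T1 is not, because too few libraries would remain. Tests of sex, the variation in the fit of all libraries and the rank of the spread among genes are given with them alone. CPM are not corrected for transcript length, and levels of the 2 genes were not compared with each other. In whole blood, fewer cells of a type and less RNA per cell cannot be told apart. No marker gene of a blood cell type could be paired with a row of the table, so the blood label was not checked against markers and the part of cell composition in the results was not tested.

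AGPAT5 was highest in the untrained horses and lower in March and May. In T0 the 6 libraries held 4.67, 5.69, 5.85, 7.40, 8.30 and 6.86 CPM, with a mean of 6.46 ± 1.31 (SD, n = 6). In T1 the lowest of 12 libraries held 1.65 CPM, the median was 3.17 and the highest held 4.52, with a mean of 3.05 ± 0.993 (SD, n = 12). Every library of T1 thus lay below every library of T0. In T2 the lowest library held 1.90 CPM, the median was 3.46 and the highest held 5.08, with a mean of 3.63 ± 1.21 (SD, n = 11). In T3 the lowest library held 3.65 CPM, the median was 5.61 and the highest held 7.72, with a mean of 5.70 ± 1.42 (SD, n = 8). In T2, 8 of 11 libraries lay below all libraries of T0, and in T3, 6 of 8 libraries lay above all libraries of T2.

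These levels rest on few reads. AGPAT5 had 60 to 116 counts per library in the untrained horses, 6 to 46 in March, 19 to 66 in May and 47 to 135 at the season's end. The coefficient of variation was 32.6% in T1, where counting error alone would give one of about 25.0%. It was 33.3% against 17.0% from counting in T2, 20.3% against 10.97% in T0 and 25.0% against 11.5% in T3. In T1 the 3 libraries with the lowest levels held 8, 9 and 10 counts and belonged to the 5 libraries of low TMM factor. Without those 5, the mean of T1 was 3.51 ± 0.751 CPM (SD, n = 7), with a coefficient of variation of 21.4%.

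**Figure D1:**
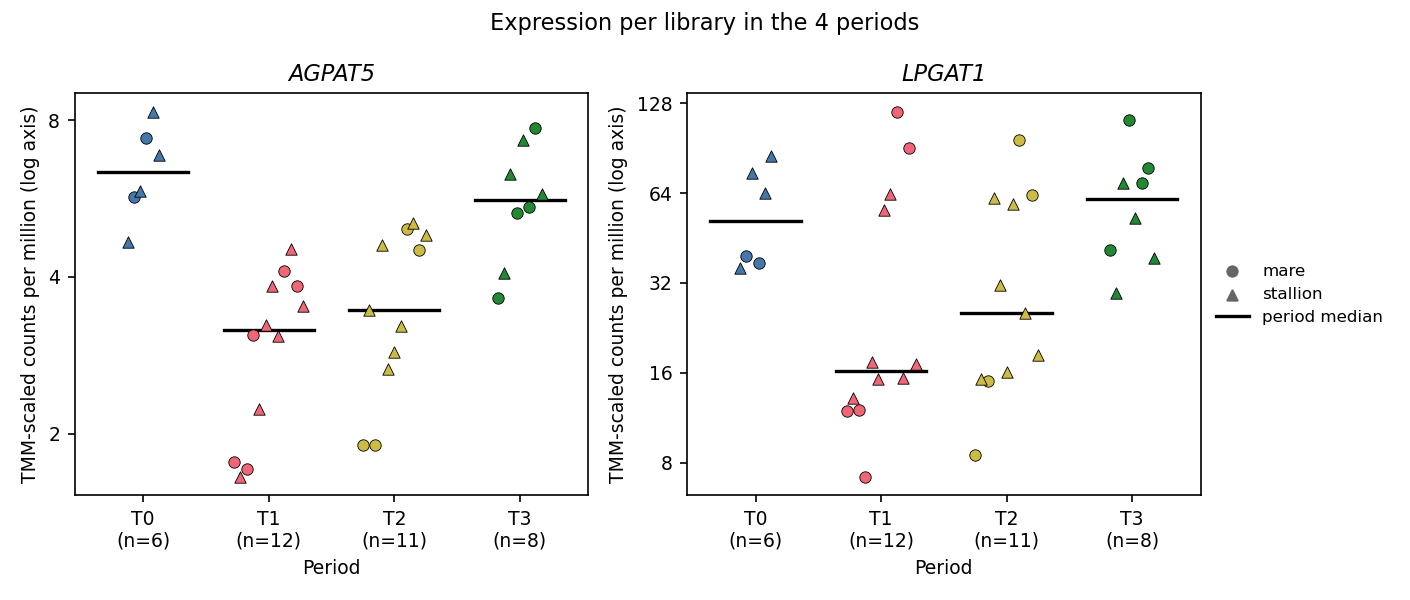
Expression of AGPAT5 (left) and LPGAT1 (right) in each library, in TMM-scaled CPM on a log axis, by period. Circles are mares, triangles are stallions and bars are period medians. The 12 T1 libraries of AGPAT5 lie below the 6 T0 libraries, whereas LPGAT1 in T1 and T2 runs from far below the T0 and T3 libraries to within or above their range.

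Between T0 and T1, AGPAT5 fell by 1.10 on the log2 scale (SE 0.22, 95% confidence interval -1.56 to -0.64), that is to 0.467 of its level in T0. The Benjamini-Hochberg adjusted p-value of edgeR's quasi-likelihood test was 0.00064. A gene was called where this value was below 0.05 and the level changed 1.3-fold or more. In the same comparison 58.1% of all genes tested were called, 29.2% of them as lower in T1, where the percentages are of genes tested. Levels of T0 and T1 that did not overlap, with T1 lower, were found for 13.9% of genes. The call of AGPAT5 was thus shared with a large part of the genes measured. Without the 5 T1 libraries of low TMM factor the difference was -0.86 with an adjusted p of 0.00083.

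The difference between T0 and T2 was smaller. AGPAT5 fell by 0.80 on the log2 scale (SE 0.21, 95% confidence interval -1.25 to -0.36), with an adjusted p of 0.0083 by the same test, and all 11 libraries of T2 lay below the median of T0. Of the genes tested, 33.4% were called in this comparison and 16.5% were lower in T2. With the log2 TMM factor as a covariate the difference was -0.40 and its adjusted p 0.63. In libraries thinned to the smallest total it was -0.89 with an adjusted p of 0.093, so the call did not hold under either setting.

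AGPAT5 rose from both spring periods to the end of the season. From T1 to T3 it rose by 0.91 on the log2 scale (SE 0.21, 95% confidence interval 0.48 to 1.34), with an adjusted p of 0.00067. All 8 libraries of T3 lay above the median of T1, and 6 lay above its highest library. In this comparison 65% of the genes tested were called and 32.9% were higher in T3. Without the 5 T1 libraries of low TMM factor the rise was 0.70 with an adjusted p of 0.0032, and with the TMM factor as a covariate it was 0.57 with an adjusted p of 0.036.

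From T2 to T3 AGPAT5 rose by 0.63 on the log2 scale (SE 0.20, 95% confidence interval 0.21 to 1.05), with an adjusted p of 0.013, where 44% of the genes tested were called and 22.5% were higher in T3. All 8 libraries of T3 lay above the median of T2. With the TMM factor as a covariate the difference was 0.39 with an adjusted p of 0.13, and in thinned libraries 0.71 with an adjusted p of 0.12, neither of which was called.

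The remaining 2 comparisons of AGPAT5 gave no call. Between T1 and T2 the difference was 0.26 on the log2 scale (SE 0.22, 95% confidence interval -0.18 to 0.71, adjusted p 0.32), and 32% of the genes tested were called. Without the 5 T1 libraries of low TMM factor it was 0.06. Between the 2 October groups, T0 and T3, it was -0.19 (SE 0.17, 95% confidence interval -0.56 to 0.17, adjusted p 0.44), and 19.6% of the genes tested were called. The order of the mean levels was therefore T0, T3, T2 and T1. Of the neighbours in it, T0 and T3 as well as T2 and T1 gave no call. T3 and T2 gave one in the reported fit, but not with the TMM covariate or in thinned libraries. The interval of T0:T3 still allows a fall by 0.56 in T3. These comparisons share libraries, and each of the calls is one view of the same 4 groups. One test across all 4 periods gave F = 11.8 and an adjusted p of 4.1e-05 for AGPAT5, where 75.5% of genes had an adjusted p below 0.05. F was 9.42 and the adjusted p 0.00037 without the 5 T1 libraries of low TMM factor.

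**Figure D2:**
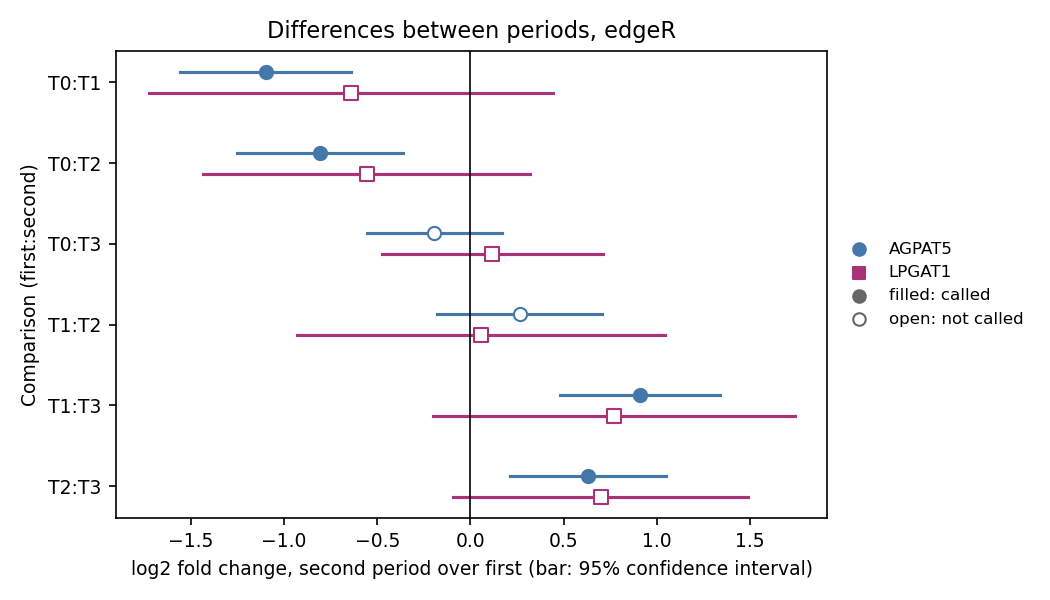
Log2 fold changes of the second period over the first for AGPAT5 (circles) and LPGAT1 (squares) in all 6 comparisons, with 95% confidence intervals as bars. Filled symbols mark called values. AGPAT5 was called in 4 comparisons and LPGAT1 in 0, and the intervals of LPGAT1 are wider in each of them.

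LPGAT1 was called in 0 of the 6 comparisons by edgeR and by DESeq2, and its lowest unadjusted p by edgeR was 0.081, in T2:T3. Its levels in T1 and T2 were spread over a wide range. In T0 the 6 libraries held 35.8, 39.3, 74.7, 37.3, 63.8 and 85.0 CPM, with a mean of 56.0 ± 21.4 (SD, n = 6). In T1 the lowest library held 7.17 CPM, the median was 16.2 and the highest held 120 CPM, with a mean of 36.6 ± 37.2 (SD, n = 12). In T2 the lowest library held 8.51 CPM, the median was 25.4 and the highest held 96.6 CPM, with a mean of 37.3 ± 28.3 (SD, n = 11). The ranges of both spring periods thus took in the whole range of T0. In T3 the lowest library held 29.7 CPM, the median was 61.0 and the highest held 112 CPM, with a mean of 61.4 ± 26.7 (SD, n = 8).

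With TMM scaling, the levels of T1 lay in 2 separate ranges. The 8 lower libraries held 7.17, 11.9, 11.98, 13.2, 15.3, 15.3, 17.1 and 17.4 CPM. The 4 upper libraries held 56.0, 63.7, 90.8 and 120 CPM, and the gap between the ranges was 3.23-fold, or 1.69 on the log2 scale, against 0.74 for the next widest gap. Without TMM factors the same 8 libraries were lowest, but the gap above them was 2.15-fold, or 1.10 on the log2 scale, and the widest gap, of 1.19, lay among them, between 7.08 and 16.1 counts per 1000000. The split into these 2 ranges thus depends on the scaling. On the TMM-scaled values, 8 libraries of T1 were below all 14 libraries of T0 and T3, and 4 were within or above their range. In T2 the widest gap was 0.91 on the log2 scale and the next 0.82, so that no single gap set libraries apart, and 6 of 11 libraries lay below the lowest library of T0 and T3.

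Low libraries of LPGAT1 occurred in both sexes. Of the 8 lower libraries of T1, 3 were from mares and 5 from stallions, and of the 4 upper libraries 2 were from mares and 2 from stallions. In T2 the 6 libraries below all of T0 and T3 came from 2 mares and 4 stallions. The lower range of T1 held 4 of the 5 libraries of low TMM factor and 4 of the 7 other libraries. Among the 5 libraries LPGAT1 ranged from 7.17 to 90.8 CPM with a median of 11.98, and among the other 7 from 15.3 to 120 CPM with a median of 17.4, so that libraries of both kinds lay on either side of the gap. Which horse gave each library is not in the labels, and whether the same horses were low in T1 and T2 was not tested.

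Counting error was small beside this spread. LPGAT1 had 51 to 991 counts per library in T1 and 85 to 1113 in T2, for which counting alone would give coefficients of variation of about 9.19% and 6.60%. The observed coefficients were 102% in T1 and 75.9% in T2, against 38.2% in T0 and 43.5% in T3. Without the 5 libraries of low TMM factor it was 90.7% in T1, with a mean of 43.5 ± 39.5 CPM (SD, n = 7). The SD of log2 CPM of LPGAT1 was exceeded by 6.59% of genes in T1 and 1.81% in T2, and by 11.5% in T0 and 8.83% in T3. For AGPAT5 the corresponding percentages were 69.9% in T1, 28.8% in T2, 38.9% in T0 and 33.1% in T3. In the fit of all libraries the biological coefficient of variation was 0.671 for LPGAT1 and 0.267 for AGPAT5, with a median of 0.294 over 12025 genes, and 2.74% of genes exceeded LPGAT1.

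Between T0 and T1 the difference of LPGAT1 was -0.64 on the log2 scale (SE 0.52, 95% confidence interval -1.73 to 0.44), with an adjusted p of 0.29. Between T0 and T2 it was -0.56 (SE 0.42, interval -1.43 to 0.32, adjusted p 0.30). Both estimates were below 0, as were the medians of T1 and T2 relative to T0, and both intervals included 0. Without T1 replicate 9 the T0:T1 difference was -0.98 with an adjusted p of 0.079, and leaving out 1 library at a time it ranged from -0.98 to -0.49. With library totals in place of TMM scaling it was -1.16 with an adjusted p of 0.085. Without the 5 T1 libraries of low TMM factor it was -0.33 with an adjusted p of 0.56, and with the TMM factor as a covariate the T0:T2 difference was -0.0032.

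From T1 to T3 the difference of LPGAT1 was 0.77 (SE 0.47, interval -0.20 to 1.74), with an adjusted p of 0.15, and all 8 libraries of T3 lay above the median of T1. It was 0.49 with an adjusted p of 0.34 without the 5 libraries of low TMM factor. Without T1 replicate 9, the library with the highest level of T1, it was 1.11 with an adjusted p of 0.028 and was called. From T2 to T3 the difference was 0.70 (SE 0.38, interval -0.09 to 1.49), with an adjusted p of 0.13, and all 8 libraries of T3 lay above the median of T2. Without T2 replicate 8, the highest of T2, it was 0.94 with an adjusted p of 0.032. A single library thus decided on which side of the threshold either comparison lay.

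Between T1 and T2 the difference of LPGAT1 was 0.06 (SE 0.48, interval -0.93 to 1.05, adjusted p 0.93), and between T0 and T3 it was 0.12 (SE 0.28, interval -0.47 to 0.71, adjusted p 0.80). Neither direction was stable. T1:T2 became -0.21 without the 5 libraries of low TMM factor, and T0:T3 became -0.05 without T3 replicate 4, the library with the highest level of T3. The order of the means was T3, T0, T2 and T1, and no neighbours in it gave a call in the reported fit. The test across all 4 periods gave F = 1.44 and an adjusted p of 0.27, and F = 1.15 and an adjusted p of 0.38 without the 5 T1 libraries of low TMM factor. The intervals of LPGAT1 include differences as large as those of AGPAT5 in each comparison in which AGPAT5 was called.

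Whether the 2 genes differed in their response was tested on the ratio of their counts within each library, which does not depend on the scaling of libraries. The ratio also reflects the unknown lengths of the transcripts, and was used for comparison between periods alone. The median was 7.67 LPGAT1 counts per AGPAT5 count in the untrained horses, and 7.39, 7.90 and 10.5 in T1, T2 and T3. On the log2 scale the mean ratio of T0 was 3.04 ± 0.52 (SD, n = 6), that of T1 3.02 ± 1.14 (SD, n = 12), that of T2 3.04 ± 0.89 (SD, n = 11) and that of T3 3.34 ± 0.55 (SD, n = 8). The largest difference was 0.33 between T1 and T3, with an adjusted p of 0.92 in a two-sided exact permutation test. The adjusted p over 6 comparisons lay between 0.92 and 0.99, where T1:T2 was tested with 100000 resamples in a permutation test and the others exactly. The differences were 0.13 in T0:T1, -0.13 in T1:T2 and 0.17 in T1:T3 without the 5 T1 libraries of low TMM factor, each with an adjusted p of 0.96 in exact permutation tests. A different response of the 2 genes was therefore not shown, although 1 gene was called and the other was not.

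**Figure D3:**
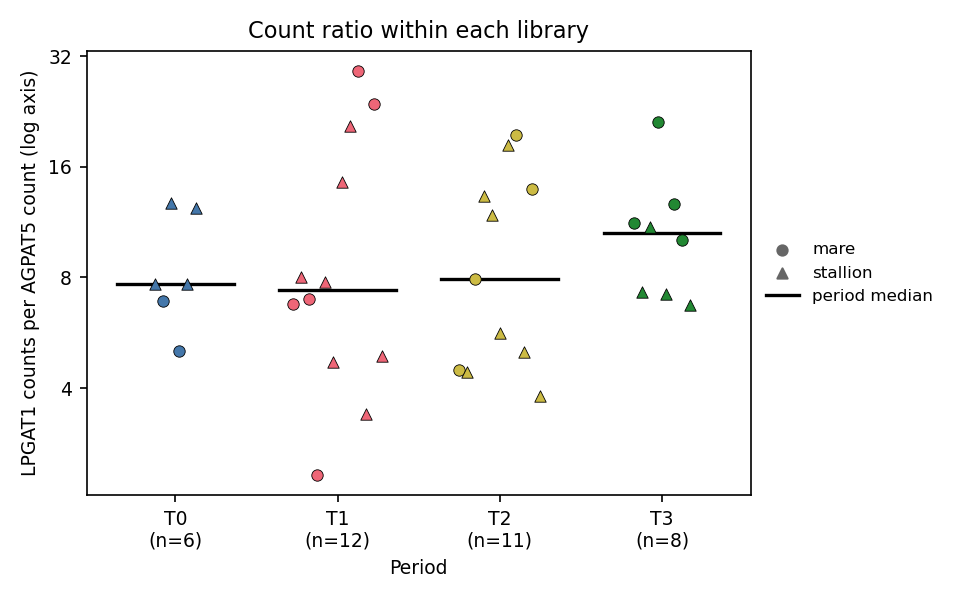
Number of LPGAT1 counts per AGPAT5 count within each library, on a log axis, by period, with mares as circles, stallions as triangles and period medians as bars. The ratio ranged from 2.32 to 29.1 in T1 and from 5.04 to 12.8 in T0, and the medians of T0, T1 and T2 lay between 7.39 and 7.90.

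The relation of the 2 genes across libraries was examined within periods on the log2 CPM scale. In T2 Pearson's r was 0.63 and Spearman's rho 0.60 (n = 11), with permutation p-values of 0.038 and 0.056 and adjusted values of 0.15 and 0.22 over 4 periods. Without the 2 libraries farthest from the AGPAT5 median r was 0.34. In T0 r was 0.40 and rho 0.37 (n = 6), with exact permutation p-values of 0.43 and 0.50 and adjusted values of 0.57 and 0.50. In T3 r was 0.50 and rho 0.36 (n = 8), with exact permutation p-values of 0.21 and 0.39 and adjusted values of 0.41 and 0.50. Without the 2 farthest libraries r was -0.09 in T0 and -0.18 in T3, where 4 and 6 libraries remained. Leaving out the extremes of AGPAT5 narrows its range and can by itself lower r. With so few libraries, this cannot decide whether the positive values rested on those left out.

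Since the TMM-scaled levels of LPGAT1 lay in 2 ranges in T1, no r over its 12 libraries is given. Within the 8 lower libraries r was 0.16 and rho 0.43, with exact permutation p-values of 0.76 and 0.30 and adjusted values of 0.76 and 0.50. The 4 upper libraries were too few to test. Without TMM scaling, r in these 8 libraries was 0.77 with an exact permutation p of 0.051 and an adjusted p of 0.10. None of the 4 relations passed after adjustment. Over all 37 libraries r was 0.67 and rho 0.65 as a description, in which differences between periods, the separate ranges of T1 and library scaling are included.

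**Figure D4:**
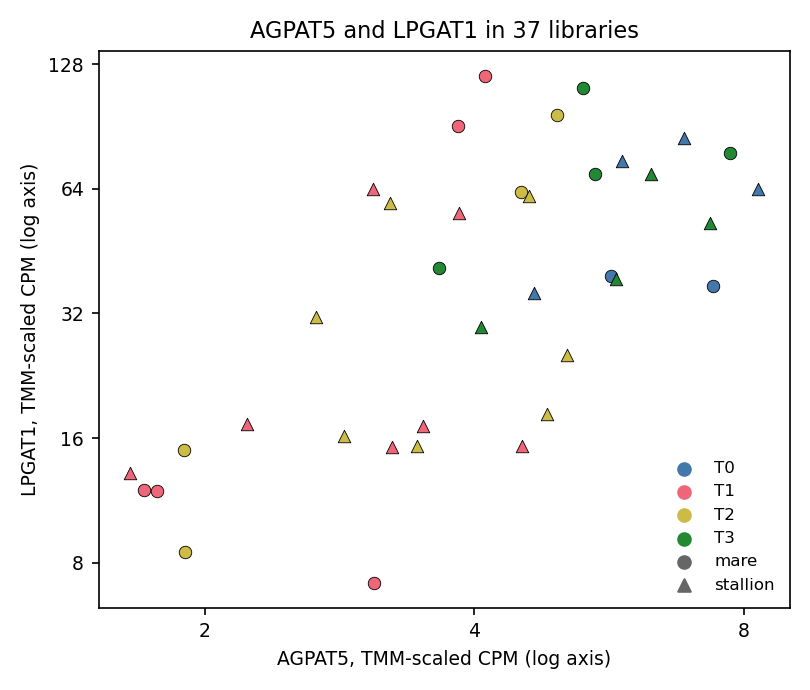
LPGAT1 against AGPAT5 in each of the 37 libraries, both in TMM-scaled CPM on log axes, coloured by period, with mares as circles and stallions as triangles. Libraries of T0 and T3 have AGPAT5 from 3.65 to 8.30 and LPGAT1 from 29.7 to 112. Libraries of T1 and T2 have AGPAT5 from 1.65 to 5.08 and LPGAT1 from 7.17 to 120, so the ranges overlap.

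Mares and stallions did not differ detectably in either gene. With period in the fit, the difference of stallions minus mares was 0.12 for AGPAT5 (SE 0.15, 95% confidence interval -0.20 to 0.43, adjusted p 0.66) and -0.45 for LPGAT1 (SE 0.34, interval -1.14 to 0.23, adjusted p 0.43), where 0.0333% of genes were called. The change between periods was also compared between the sexes. The largest such difference relative to its error was that of LPGAT1 in T0:T3, with an interaction of -1.43 on the log2 scale, that is a change toward higher levels in mares relative to stallions (SE 0.50, unadjusted p 0.013 by edgeR). LPGAT1 held 37.3 and 39.3 CPM in the 2 mares of T0 and 41.1 to 112 in the 4 mares of T3, and 35.8 to 85.0 in the 4 stallions of T0 and 29.7 to 69.3 in the 4 stallions of T3. The median thus went from 38.3 to 73.6 CPM in mares and from 69.2 to 45.8 CPM in stallions, in opposite directions. The adjusted p was 0.99998 and thus did not pass. In edgeR's interaction test 0 genes had an adjusted p below 0.05 in T0:T3, and 242 of 11696 had an unadjusted p below 0.05.

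Genes with the most similar pattern were ranked by the mean over the 4 periods of Spearman's rho within a period, over 12024 other genes, as a description. For AGPAT5 the most similar were ENSECAG00000021957 and ENSECAG00000021626, each with a mean rho of 0.84, for which no symbol was at hand. Among the genes whose identifiers the study prints, they were LARP4, an RNA-binding protein, with 0.78, GALNT7, which starts O-linked sugar chains, with 0.75, and MBTD1, a chromatin protein, with 0.74. For LPGAT1 the most similar were ENSECAG00000016922 and ENSECAG00000021002, each with 0.76. Among genes with a printed identifier they were TMED5, a cargo receptor of the early secretory pathway, with 0.64, the activin receptor ACVR2A with 0.61 and LARP4 with 0.61.

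This ranking used all 12 libraries of T1 for every gene, across both ranges of LPGAT1, so no mean rho of the 2 genes with each other is given. Without the 5 T1 libraries of low TMM factor the values of the genes named for AGPAT5 were 0.81, 0.84, 0.79, 0.71 and 0.67 in the order above. Those of the genes named for LPGAT1 were 0.69, 0.64, 0.38, 0.53 and 0.43, and TMED5 moved from rank 29 to rank 719. The genes named for AGPAT5 went from ranks 1, 2, 31, 65 and 107 to ranks 6, 3, 11, 118 and 212, in the same order. The order of genes near both members thus changed without these libraries. With the reference gene SDHA, a subunit of succinate dehydrogenase, AGPAT5 had a rho of 0.77, 0.20, 0.46 and 0.50 in T0, T1, T2 and T3. With the reference gene GAPDH, an enzyme of glycolysis, its rho was 0.77 in T0 and -0.69 in T1, and -0.13 and -0.05 in the later periods, so that the direction differed between periods.

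**Figure D5:**
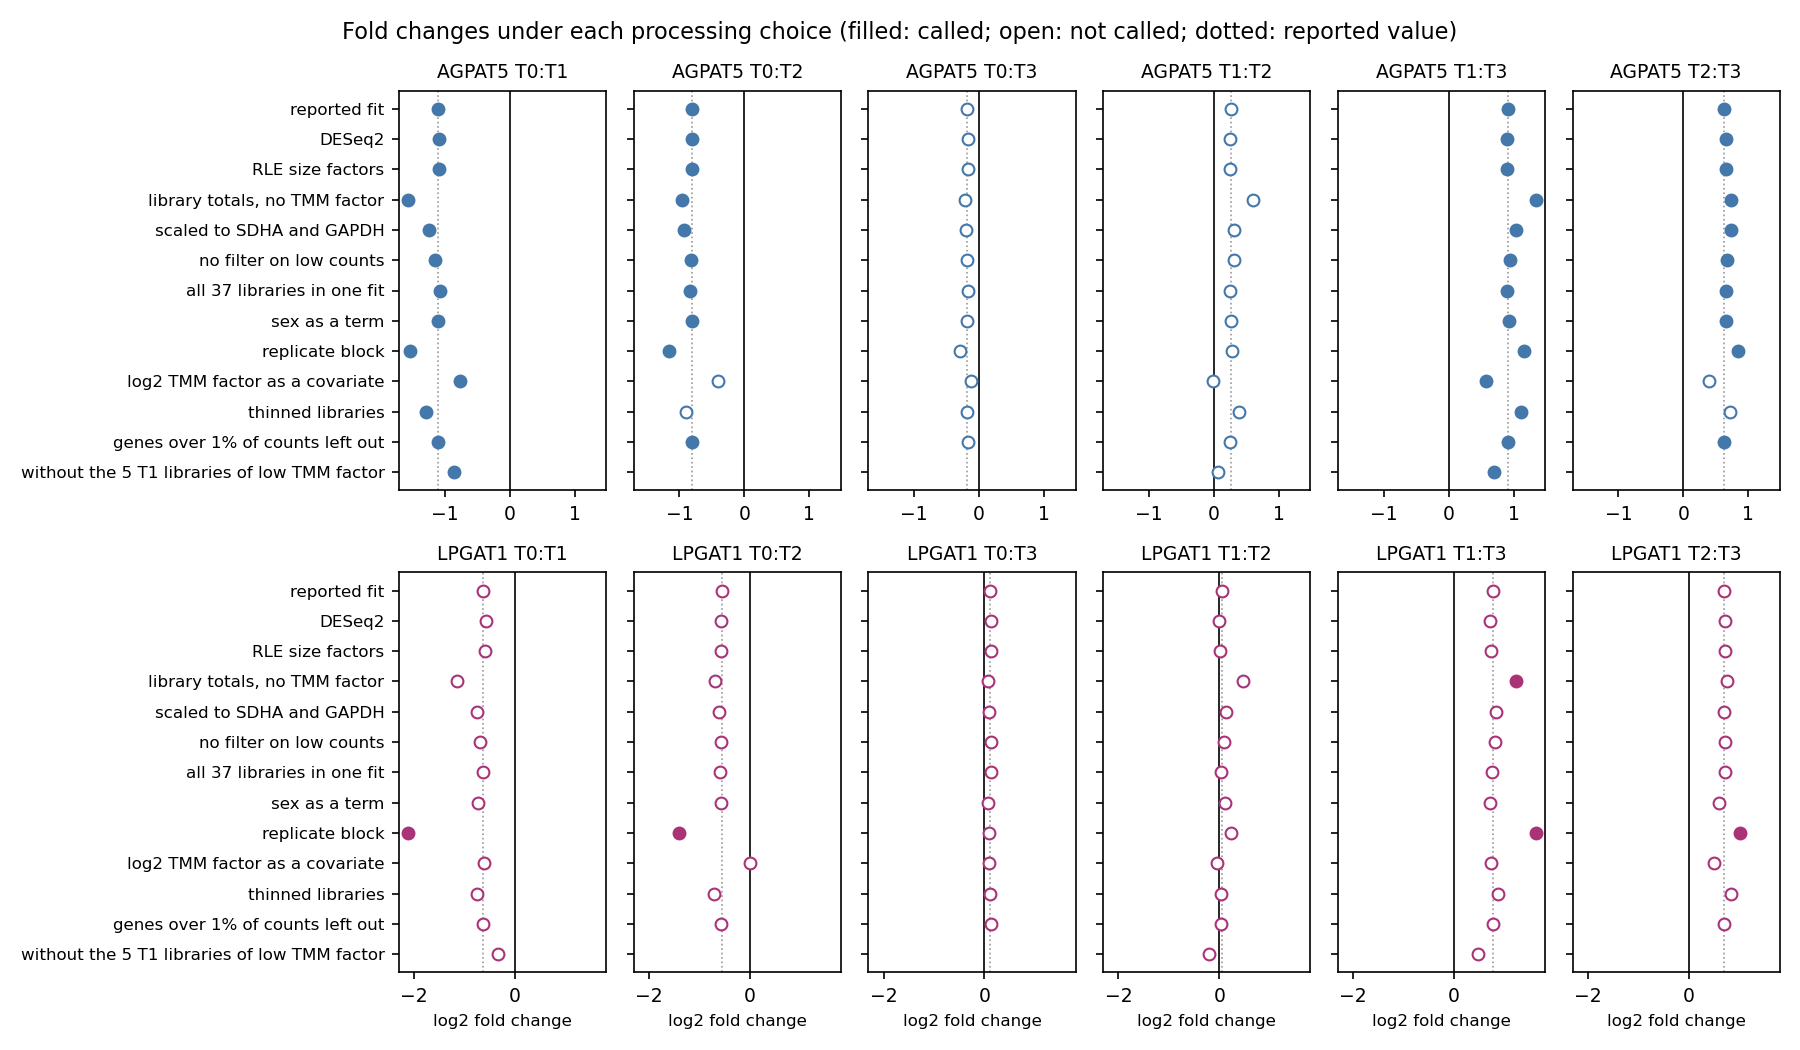
Log2 fold changes of AGPAT5 (top) and LPGAT1 (bottom) in the 6 comparisons under the reported fit and under each other way of processing, with filled symbols for called values and a dotted line at the reported value. AGPAT5 kept its call under each in T0:T1 and T1:T3 and lost it under 2 in T0:T2 and in T2:T3. LPGAT1 gained a call in 4 comparisons with the replicate number as a block and in 1 with library totals. The block uses only numbers found in both periods.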

How the data were processed

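Whole-blood RNA was sequenced in 37 libraries. The authors trimmed reads with Flexbar, aligned them with STAR to the EquCab2 assembly and estimated expected counts per Ensembl gene with RSEM. The deposited table holds these expected counts rounded to whole numbers and not normalized. Of 26991 genes, 20718 had at least 1 count. The 3 smaller tables of single comparisons were not used.

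Samples were grouped by the period in their labels. The counts were tested with edgeR 4.0.16 in R 4.3.3 (filterByExpr, TMM factors, quasi-likelihood F-test), with the 2 periods of a comparison in each fit and p-values adjusted over all genes tested. The standard error of a log2 fold change was taken as its absolute value over the root of F. Ratios of counts (0.5 added to each) and correlations were tested by permutation in scipy 1.17.1. The tests were checked on simulated data. No libraries were duplicates (chi-square per degree of freedom within periods at least 14.5). Replicate numbers come from the labels, and nothing says that they mark a horse. With counts of 6 to 46 per library in T1, precision for AGPAT5 is limited by depth.

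The members and lists were chosen with earlier results of these data known. Genes similar to the members were named by rule: the 2 highest of all genes and the 3 highest among those whose identifiers the study prints. A list of 67 glycerophospholipid enzymes and one of 26 blood cell markers were intended, but the RefSeq gene table at hand gives no Ensembl identifiers. Only the 2 members could be paired, through the study's own identifiers, and neither list was analysed further. The correlation within T1 was planned over 12 libraries and was restricted to 8 after the separate ranges were seen.

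Alternatives were DESeq2 1.42.0, RLE factors, library totals, scaling to SDHA and GAPDH, no filter on low counts, one fit of all libraries, sex, replicate number or log2 TMM factor as a term, libraries thinned to the smallest total, the 2 genes over 1% of counts left out, and each library left out in turn. Leaving out the 5 T1 libraries with TMM factors under 0.8 and the gaps of LPGAT1 in T1 without TMM factors were chosen after seeing the data.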

Additional observations from a re-analysis of the deposited data

Results flagged for a closer look

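The highest ratio of LPGAT1 to AGPAT5 counts in T3 was 21.2, in the mare of T3 replicate 4, and lay apart from the other 7 libraries. Its gap to the nearest library was 0.587 of the whole range of the period, above Dixon's 95% critical value of 0.526 for 8 libraries. The criterion was applied to both levels and the ratio, in T0 and T3 alone, and without taking logs. On the log2 scale, used for the other tests of the ratio, this library held 4.40, the next 3.66 and the lowest 2.74. The gap is a smaller share of the range there and lies below 0.526. Chance flags about 1 in 20 groups. The same library had the highest LPGAT1 level of T3, at 112 CPM, and an AGPAT5 level of 5.30 CPM near the median, and neither level by itself passed that criterion.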

How the results depend on the processing

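Over 26 results and 385 other settings, 355 values kept their direction and their side of the threshold, 4 lost a call, 7 gained one and 19 changed sign. AGPAT5 kept its calls in T0:T1 and T1:T3 under all 12 alternatives, with log2 fold changes from -1.56 to -0.77 and from 0.57 to 1.34. It lost the call in T0:T2 when the log2 TMM factor was added as a covariate (-0.40) and in thinned libraries (-0.89), and in T2:T3 under the same settings (0.39 and 0.71). Thinning lowers the counts, and the cause of the other changes was not tested. In T1:T2, AGPAT5 became -0.015 with the covariate, and LPGAT1 became -0.036 with it, -0.0054 with DESeq2 and -0.21 without the 5 T1 libraries of low TMM factor. Without these 5 libraries the log2 count ratio changed sign in T0:T1 (0.13) and T1:T2 (-0.13). LPGAT1 was called in T1:T3 with library totals (1.24).

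Leaving out 1 library at a time gave AGPAT5 ranges of -1.19 to -1.02 in T0:T1, -0.87 to -0.72 in T0:T2, 0.84 to 0.98 in T1:T3 and 0.56 to 0.71 in T2:T3, all called. LPGAT1 ranged from -0.98 to -0.49 in T0:T1, from -0.81 to -0.40 in T0:T2, from -0.19 to 0.38 in T1:T2, from -0.051 (without T3 replicate 4) to 0.27 in T0:T3, from 0.59 to 1.11 in T1:T3, where the call was gained without T1 replicate 9, and from 0.52 to 0.94 in T2:T3, where it was gained without T2 replicate 8. Without the 2 farthest libraries r changed sign in T0 (-0.088) and T3 (-0.18).

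With the replicate number as a block LPGAT1 was called in T0:T1 (-2.12), T0:T2 (-1.40), T1:T3 (1.62) and T2:T3 (1.02), and no call of AGPAT5 changed. Samples with the same number were of the same sex in 3 of 6, 2 of 6, 3 of 6, 6 of 11, 5 of 8 and 3 of 8 cases in T0:T1, T0:T2, T0:T3, T1:T2, T1:T3 and T2:T3. Correlations of their deviations ran from -0.35 to 0.52, and 1, 1, 3, 3, 4 and 1 samples matched best with their own number, so the numbers do not pair horses.

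With library totals the median log2 fold change of all genes was -0.56 in T0:T1, -0.13 in T0:T2, 0.43 in T1:T2 and 0.50 in T1:T3. Relative to it AGPAT5 changed by -0.998, -0.83, 0.17 and 0.84, and LPGAT1 by -0.60, -0.56, 0.04 and 0.74. The number of genes called moved by over 1.5 times with the TMM covariate, from 6708 to 2795 in T0:T1, 7452 to 4804 in T1:T3, 5107 to 2965 in T2:T3, and 3900 and 3584 to 0 by edgeR in T0:T2 and T1:T2, where 1180 and 649 genes had an unadjusted p below 0.05. It was 2113 in T0:T2 and 717 against 2295 in T0:T3 in one fit of all libraries, 1447 with the block and 1449 in thinned libraries in T0:T3, and in T1:T2 1754 with library totals and 0 by edgeR without the 5 T1 libraries, where 1444 had an unadjusted p below 0.05. With library totals the share of calls that were higher in the second period went from 49.8% to 24.01% in T0:T1, 50.7% to 23.8% in T0:T2, 35.1% to 65.4% in T1:T2, 50.7% to 73.0% in T1:T3 and 51.1% to 65.0% in T2:T3, and with scaling to SDHA and GAPDH to 38.8% in T0:T1, 21.8% in T0:T2 and 65.0% in T2:T3. Depth limits AGPAT5 most in T1.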
